A study of Mus musculus with 12 samples.

Results

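The transcripts MGP_FVBNJ_T0049470.1 and MGP_FVBNJ_T0049487.1, written below as T0049470 and T0049487, were followed in mouse back skin. They are 2 of the 85565 transcripts listed for every library. Both were selected on measured values, because their numbers lie near each other in id order and both were lower in DMBA-treated Tcrb-/- skin that had received Tregs than in DMBA-treated Tcrb-/- skin without them. The other 36 listed ids from T0049460 to T0049497 served as context. No source used here pairs these ids with a gene, a position or a sequence, so both are called by their ids, and nearness in id order was not read as nearness in the genome.

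RNA was taken from whole back skin of female mice at least 7 weeks old, of the strain labelled FVB and given as FVB/N in the study's methods, with 3 libraries in each of 4 groups. UT WT was untreated wild-type skin. WT DMBA was wild-type skin given the carcinogen 7,12-dimethylbenz[a]anthracene (DMBA) at 200 ng weekly for 6 weeks, as the deposited description states. The study's methods give another dose and schedule, while its figure legend for this experiment also gives weekly treatment for 6 weeks. Tcrb-/- DMBA was skin of mice that lack the T cell receptor beta chain, under the same carcinogen. Tcrb-/- + Treg DMBA was skin of such mice that had received CD3+CD4+CD25+ Tregs from wild-type donors intravenously before the carcinogen. The study's methods give the spleen as their source, while its figure legend for this experiment gives spleen and lymph nodes. All carcinogen-treated groups therefore shared DMBA, and both Tcrb-/- groups shared the germline deletion, which removes alpha-beta T cells but leaves gamma-delta T cells. The treatment field of the WT DMBA libraries reads naïve, and these libraries were grouped by their titles. No source used here says whether the 3 libraries of a group are 3 mice, so p-values measure only the spread between these libraries, which may be partly technical.

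Tregs are CD4+ T cells, most of which depend on the transcription factor Foxp3, and they restrain other T cells. In skin they gather around hair follicles and take part in epithelial repair. DMBA is activated by enzymes of the skin to a form that binds DNA, and repeated application starts tumours in the epidermis. Bulk RNA of whole skin mixes keratinocytes, hair follicles, fibroblasts, fat, muscle and immune cells. Fewer cells that express a transcript and less of it per cell cannot be told apart in such RNA. Several transcripts of a gene can share sequence, and Salmon, the program behind the deposited values, then divides reads among them by estimation. Its values for a transcript are therefore estimated reads, not observed ones.

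The libraries held between 17312566 and 31701620 estimated reads. Levels are given as CPM, the usual depth-scaled estimated reads, computed here with edgeR's TMM factors, or as the deposited TPM, which is also divided by transcript length. On the first principal component of the 500 most variable transcripts, which carried 46.8% of their variance, Tcrb-/- DMBA replicate 1 lay at 48.4 and the other libraries of its group at 14.4 and 10.2, while the Tcrb-/- + Treg DMBA libraries lay between 27.2 and 43.0. The main values that rest on that library are given with and without it.

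T0049470 was an abundant transcript of untreated skin and was lowest in every library of Tcrb-/- mice that received Tregs. It is listed at 1420 nt in all 12 files, and its effective length, the length open to fragments as Salmon estimates it, was between 1282 and 1330 nt. In UT WT it held 14777, 22549 and 17860 estimated reads, or 649, 671 and 755 CPM. In WT DMBA it held 11784, 10919 and 11941 reads, or 592, 628 and 514 CPM. In Tcrb-/- DMBA it held 7408, 9735 and 11325 reads, or 363, 477 and 499 CPM. All 3 UT WT libraries lay above all WT DMBA libraries, and all WT DMBA libraries lay above all Tcrb-/- DMBA libraries. In Tcrb-/- + Treg DMBA it held 2068, 3623 and 2088 reads, or 99.0, 155 and 110 CPM, and the highest of these was below the lowest library of any other group.

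The group means of T0049470 fell from UT WT through WT DMBA and then Tcrb-/- DMBA to Tcrb-/- + Treg DMBA, at 692 ± 55.8, 578 ± 58.3, 446 ± 73.3 and 121 ± 29.7 CPM (SD, n = 3 each). Each neighbour in this order was free of overlap with the next, but the steps from UT WT to Tcrb-/- DMBA were small beside the last one. On the TPM scale the means were 825 ± 80.4, 658 ± 64.4, 453 ± 109 and 114 ± 29.4 (SD, n = 3 each). By TPM it ranked between 166 and 189 of the 85565 transcripts in UT WT, between 196 and 231 in WT DMBA and between 257 and 419 in Tcrb-/- DMBA. In Tcrb-/- + Treg DMBA it ranked between 897 and 1458.

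T0049487 was less abundant per length than T0049470 in every library, and its level was also lowest in all libraries of the Treg group. It is listed at 3893 nt in all files, with an effective length between 3862 and 3911 nt, so that the estimate passed the listed length in some libraries. In UT WT it held 1814, 2449 and 2013 estimated reads, or 79.7, 72.9 and 85.1 CPM. In WT DMBA it held 2045, 1959 and 1984 reads, or 103, 113 and 85.4 CPM, all above the UT WT libraries, although replicate 3 lay only just above the highest of them. On the TPM scale, with DESeq2 size factors and with library totals these groups overlapped, and in TPM replicate 3 of WT DMBA was at 33.3 and replicate 3 of UT WT at 35.1. In Tcrb-/- DMBA it held 1571, 2180 and 2352 reads, or 76.9, 107 and 104 CPM, which overlapped both wild-type groups. In Tcrb-/- + Treg DMBA it held 572, 759 and 470.0 reads, or 27.4, 32.5 and 24.8 CPM, less than in any other library.

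The order of the group means was therefore not that of T0049470. T0049487 was highest in WT DMBA at 100.3 ± 13.8 CPM, followed by Tcrb-/- DMBA at 95.8 ± 16.4, UT WT at 79.2 ± 6.10 and Tcrb-/- + Treg DMBA at 28.2 ± 3.94 CPM (SD, n = 3 each). WT DMBA and Tcrb-/- DMBA, neighbours in that order, did not differ beyond their spread, nor did Tcrb-/- DMBA and UT WT. Without replicate 1 the mean of Tcrb-/- DMBA was 105 CPM, and it then stood first in the order. In TPM the means were 38.6 ± 4.69, 32.5 ± 7.71, 32.1 ± 2.89 and 8.91 ± 1.32 in the same order of groups (SD, n = 3 each). Its TPM rank was between 3397 and 5265 in the libraries outside the Treg group, and between 9965 and 11170 within it.

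**Figure D1:**
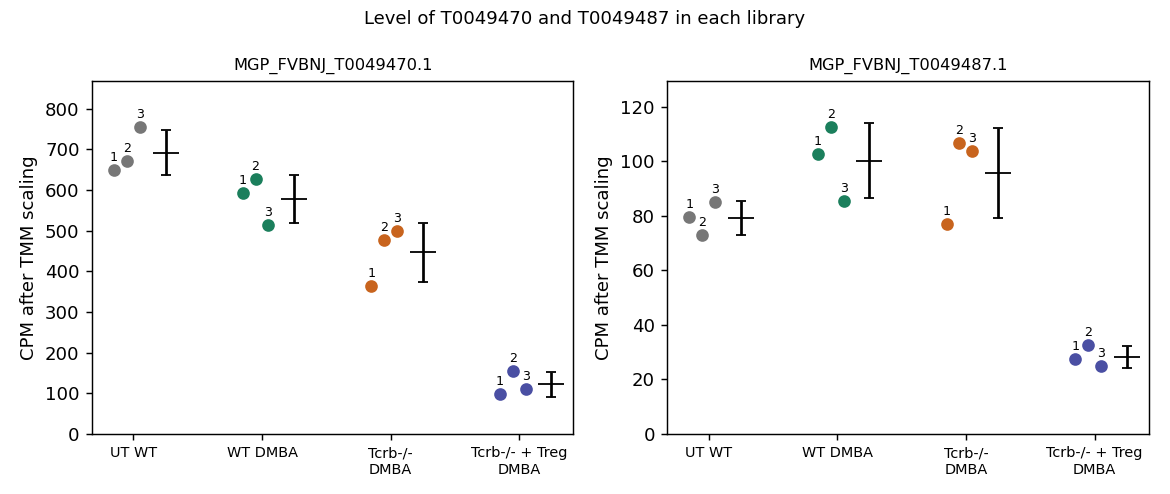
Level of T0049470 (left) and T0049487 (right) in CPM after TMM scaling, with a point for each library numbered by replicate and a bar for the mean ± SD of 3 libraries. The Tcrb-/- + Treg DMBA libraries lay between 99.0 and 155 CPM for T0049470 and between 24.8 and 32.5 CPM for T0049487, below all other libraries in both panels.

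In the contrast that selected them, both transcripts were lower by a similar factor in skin that received Tregs. T0049470 was 3.68-fold lower in Tcrb-/- + Treg DMBA than in Tcrb-/- DMBA, a log2 ratio of mean CPM of -1.88, and T0049487 was 3.39-fold lower, a log2 ratio of -1.76. Because these values chose the transcripts they are a description and were not tested. Neither overlapped between the groups, and 6.48% of all 54539 transcripts with at least 10 reads over the 12 libraries were likewise lower without overlap. Without Tcrb-/- DMBA replicate 1, the library that stood apart, the log2 ratios were -2.01 for T0049470 and -1.90 for T0049487. Leaving out any other library of the contrast gave values between -2.09 and -1.75 for the former and between -1.88 and -1.68 for the latter.

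The Treg group was also lower than DMBA-treated wild-type skin, which has its own alpha-beta T cells, Tregs included. T0049470 was 4.76-fold lower, with a log2 ratio of -2.25, and T0049487 was 3.55-fold lower, with a log2 ratio of -1.83. This comparison shares its Treg libraries with the contrast that selected the transcripts, so these values are also a description. Of all transcripts tested, 10.9% were lower without overlap in this comparison and 10.9% were higher. Loss of alpha-beta T cells under DMBA went with a log2 ratio of -0.37 for T0049470 in Tcrb-/- DMBA relative to WT DMBA, without overlap, where 7.5% of all transcripts were lower in that way. For T0049487 the ratio was -0.07 and the groups overlapped. Without Tcrb-/- DMBA replicate 1 the ratio of T0049470 was -0.24, still without overlap, and that of T0049487 turned to 0.07. Its sign also turned without WT DMBA replicate 2, to 0.03, so T0049487 had no stable direction here.

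DMBA in wild-type skin was the only comparison whose libraries played no part in the selection, and neither transcript passed the test there. T0049470 was lower in WT DMBA than in UT WT in all libraries, with a log2 fold change of -0.26 (SE 0.175), and edgeR's quasi-likelihood test gave an adjusted p of 0.569 (unadjusted p = 0.168). T0049487 was higher in all WT DMBA libraries in CPM after TMM scaling but not under the other scalings, with a log2 fold change of 0.34 (SE 0.157), and the same edgeR test gave an adjusted p of 0.449 (unadjusted p = 0.0538). The test called a transcript at an adjusted p under 0.01 and a fold over 2, which 0.231% of all transcripts met in this comparison. Of all transcripts, 8.46% were lower and 11.1% were higher without overlap between these groups, so transcripts without overlap were common here. The fold changes of T0049470 and T0049487 thus had opposite signs under DMBA in wild-type skin, though neither passed the test.

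The level of T0049470 relative to T0049487 was highest in untreated skin. The TPM of T0049470 was 24.1, 27.1 and 26.1 times that of T0049487 in UT WT, and 17.001, 16.544 and 17.769 times in WT DMBA. It was 13.951, 13.487 and 14.411 times in Tcrb-/- DMBA and 10.7, 14.2 and 13.2 times in Tcrb-/- + Treg DMBA. The mean ratio was thus 25.7 ± 1.52 in UT WT, 17.1 ± 0.619 in WT DMBA, 13.9 ± 0.462 in Tcrb-/- DMBA and 12.7 ± 1.79 in Tcrb-/- + Treg DMBA (SD, n = 3 each). All UT WT libraries lay above all WT DMBA libraries, and the difference of -8.64 between the means gave p = 0.1 in a two-sided exact permutation test, which is the smallest p that 3 against 3 libraries allow. The ratio was chosen as a measure after the values had been seen. Between both Tcrb-/- groups the ratios overlapped. The Tcrb-/- DMBA mean was also 13.9 without replicate 1.

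The ids next to T0049470 in the deposited tables gave a closer context. The tables do not list ids in order of number. T0049468, T0049469 and T0049470 are consecutive entries, as do T0049487 and T0049488, but these stretches lie far apart, at entries 70484 to 70486 and 46091 to 46092 of 85565. T0049468, which is 1297 nt long, held the most reads of the other ids over all libraries and, like T0049470, was lowest in the Treg group. It was at 759, 904 and 1030 CPM in UT WT, 1168, 1080 and 851 CPM in WT DMBA, 665, 886 and 851 CPM in Tcrb-/- DMBA and 171, 340 and 131 CPM in Tcrb-/- + Treg DMBA. The 3 Treg libraries were below all others, and replicate 2 was highest among them, as it was for both selected transcripts.

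T0049468 was not itself selected and was tested. It stands beside T0049470 and correlated with it over the 12 libraries (Pearson r = 0.963). Whether Salmon divided reads between them was not settled. The tests of T0049468 in the Treg libraries are therefore not independent of the selection. Its log2 fold change in Tcrb-/- + Treg DMBA relative to Tcrb-/- DMBA was -1.90 (SE 0.308), and edgeR gave an adjusted p of 0.0499, which did not pass 0.01. Without Tcrb-/- DMBA replicate 1 the log2 fold change was -2.02 and the edgeR adjusted p 0.0455. It passed without Tcrb-/- + Treg DMBA replicate 2, with an edgeR adjusted p of 0.00294, and by DESeq2 with an adjusted p of 5.70e-08, while the adjusted p over all settings went up to 0.429. Relative to WT DMBA it fell by 2.27 on the log2 scale (SE 0.312), and edgeR gave an adjusted p of 0.00652, which passed. That call was lost in edgeR without Tcrb-/- + Treg DMBA replicate 1 (adjusted p = 0.0450) or 3 (0.0118), and without WT DMBA replicate 1 (0.0274), 2 (0.0245) or 3 (0.0154). Over all settings the adjusted p was between 5.48e-12 and 0.0472.

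Within this stretch the share of reads given to T0049470 was lower in WT DMBA than in UT WT and overlapped between both Tcrb-/- groups. T0049470 took 45.1, 41.5 and 41.0% of the estimated reads of T0049468 to T0049470 in UT WT and 32.4, 36.8 and 37.2% in WT DMBA. It took 35.3, 33.0 and 37.0% in Tcrb-/- DMBA and 36.7, 29.7 and 45.7% in Tcrb-/- + Treg DMBA, whose libraries spanned those of all DMBA groups. The share differed by -7.06 points, lower in WT DMBA than in UT WT with no overlap, and the two-sided exact permutation test gave p = 0.1, its smallest value. The summed level of the stretch was 1634 CPM in UT WT and 1640 CPM in WT DMBA (exact permutation p = 1, two-sided). It was 1274 CPM in Tcrb-/- DMBA and 345 CPM in Tcrb-/- + Treg DMBA, a log2 ratio of -1.89. Without Tcrb-/- DMBA replicate 1 the ratio was -2.02, and the mean share of T0049470 in Tcrb-/- DMBA was 35.0%, against 35.1% with it. Like the ratio, the share was chosen as a measure after the values had been seen. In these libraries T0049470 was a smaller part of a sum that overlapped between wild-type groups. It was on average about the same part of a sum that was lower in the Treg group. T0049469, listed at 1428 nt, held a mean of 2.65% of the stretch in UT WT and between 1.64 and 1.87% in the DMBA groups, and was at 0 in several libraries. How Salmon divided reads among these ids can move such shares, and its part in them was not tested.

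**Figure D2:**
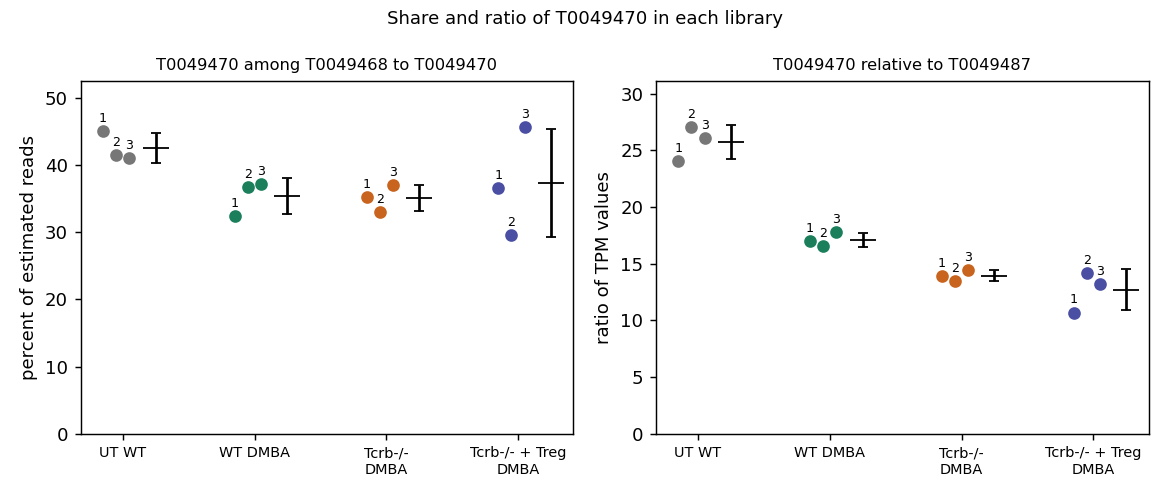
Share of T0049470 among the estimated reads of T0049468 to T0049470 in percent (left) and the ratio of its TPM to that of T0049487 (right), with numbered points for libraries and bars for the mean ± SD of 3. UT WT lay highest in the right panel, between 24.1 and 27.1, and the Treg libraries spread between 29.7 and 45.7% in the left panel.

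The fractions of reads pointed to a partner of T0049487 in Salmon's division of reads, but not to one of T0049470. A transcript whose reads are not whole has shared reads with others, and their estimates should add to a whole number. T0049487 was not whole in all 12 libraries, and with T0049488 it added to a whole number within 0.01 in 10 of them, where the next best of all listed transcripts did so in 4. At a tolerance of 0.05 the counts were 8 and 6 of 10 libraries, so the pair stood out less. T0049488, listed at 4701 nt, held only 1.40 to 5.06% of the reads of the pair. T0049488 was at 2.37, 3.77, 3.58 and 1.28 CPM on average in untreated, WT DMBA, Tcrb-/- DMBA and Treg skin, and its edgeR adjusted p in the Treg contrast was 0.553. For T0049470, not whole in 11 libraries, no other listed transcript gave a whole sum in more than 3, nor did sums with up to 3 other ids from T0049460 to T0049497. At a tolerance of 0.05 the best single transcript did so in 6 of 10 libraries, shared with another transcript at the same count. Its partners in the division of reads were not found by this measure.

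T0049485, at 5407 nt, was also lower in the Treg group and stands with T0049486 apart from both stretches. It was at 37.8, 44.1 and 53.4 CPM in UT WT, 62.6, 62.1 and 54.8 CPM in WT DMBA, 44.8, 46.6 and 50.4 CPM in Tcrb-/- DMBA and 17.4, 28.7 and 10.7 CPM in Tcrb-/- + Treg DMBA. Its libraries were lowest in the Treg group without overlap. Like T0049487 it was higher in CPM in WT DMBA than in UT WT, with a log2 fold change of 0.41 that was not called (edgeR adjusted p = 0.572). In TPM these wild-type groups overlapped, with replicate 3 at 15.1 in WT DMBA and at 15.5 in UT WT. Its log2 fold change was -1.32 (SE 0.282) relative to Tcrb-/- DMBA (edgeR adjusted p = 0.130) and -1.66 relative to WT DMBA (edgeR adjusted p = 0.0151), and neither passed. T0049485 is named because of its fold, and T0049469 and T0049488 for their place beside the selected transcripts. All 3 were chosen after their values were seen.

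**Figure D3:**
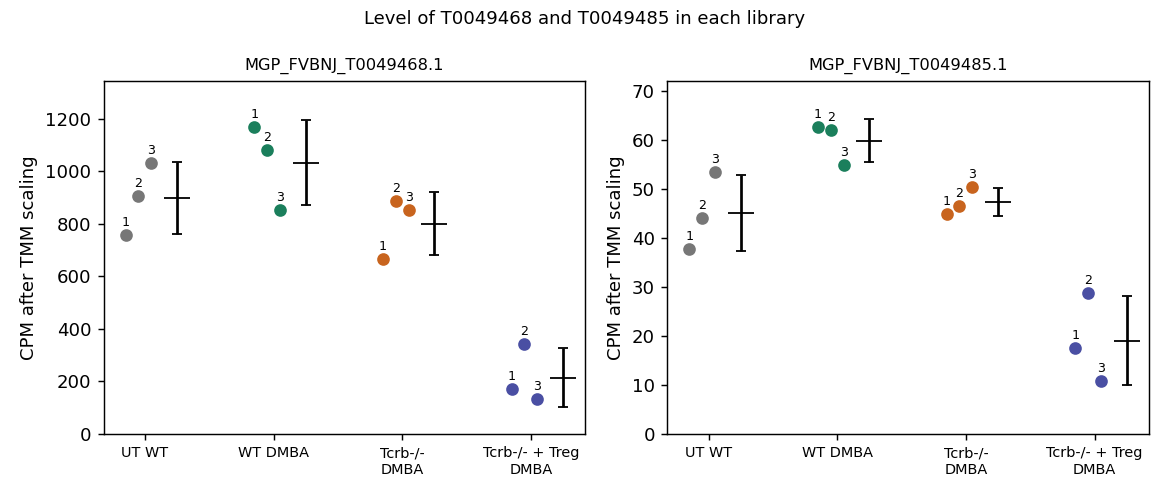
Level of T0049468 (left) and T0049485 (right) in CPM after TMM scaling, with numbered points for libraries and bars for the mean ± SD of 3 libraries. The Treg libraries lay between 131 and 340 CPM for T0049468 and between 10.7 and 28.7 CPM for T0049485, below the libraries of the other groups.

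The lower level was not shared by most of the listed ids around the selected transcripts. Of the 36 others, 27 had enough reads to be tested and 5 were at 0 in all libraries. None was called by edgeR in Tcrb-/- + Treg DMBA relative to Tcrb-/- DMBA, where it called 0.011% of all transcripts lower. An unadjusted p under 0.05 was met by 4, and DESeq2 called 2. The shares of all transcripts for these last measures were not computed in any comparison, so their counts have no background to stand beside. Of the 27 tested, 4 were lower and 1 was higher without overlap, against 6.48% and 5.09% of all transcripts. The 4 include T0049468, which stands beside T0049470, and T0049488, the likely partner of T0049487 in the division of reads. Both are therefore tied to the selected values. Among the 19 with a mean of at least 1 CPM, 10 were lower and 9 higher, with log2 fold changes from -1.90 to 0.82 and a median of -0.09. The median of all 26980 transcripts at that level was 0.05, and 44.2% of them were lower. T0049462, of 683 nt, and T0049466, of 444 nt, held the most reads after T0049468. T0049462 was at 918 CPM in the Treg group against 701 CPM in Tcrb-/- DMBA, with an edgeR adjusted p of 0.545, and T0049466 at 262 CPM against 204 CPM, with an edgeR adjusted p of 0.722.

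In the other comparisons the context was likewise mixed. Relative to WT DMBA, T0049468 was the 1 id called lower in the Treg group, where 0.348% of all transcripts were called lower, and 5 ids were lower and 5 higher without overlap, against 10.9% of all transcripts in each direction. The lower ids again include T0049468 and T0049488, both tied to the selected values, and the Treg libraries are those of the selecting contrast. None was called by edgeR in WT DMBA relative to UT WT, where it called 0.231% of all transcripts. There 2 ids had an unadjusted p under 0.05, DESeq2 called 0, and 3 were lower and 5 higher without overlap, against 8.46% and 11.1% of all transcripts. None was called in Tcrb-/- DMBA relative to WT DMBA, where edgeR called 0.00367% of all transcripts, 1 id had an unadjusted p under 0.05 and DESeq2 called 0. There 3 were lower and 4 higher without overlap, against 7.5% and 6.34% of all transcripts.

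**Figure D4:**
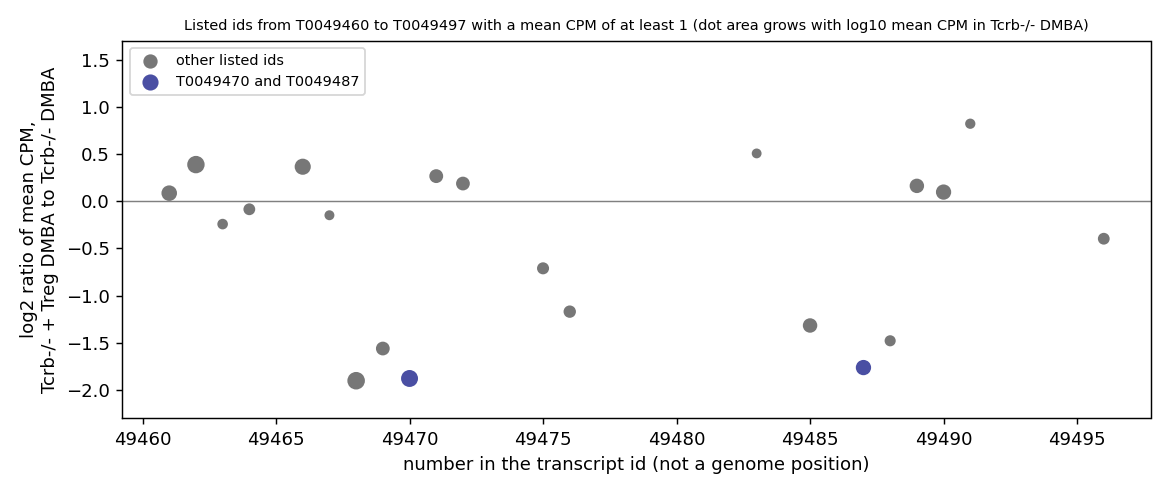
Log2 ratio of mean CPM between Tcrb-/- + Treg DMBA and Tcrb-/- DMBA (vertical axis) for the ids from T0049460 to T0049497 with a mean of at least 1 CPM, by the number in the id (horizontal axis). T0049470 at -1.88 and T0049487 at -1.76 stand beside T0049468 at -1.90, while 9 of the other 19 ids lie above 0.

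Summed over the 36 other ids, the level was 2227 ± 130 CPM in UT WT, 2150 ± 197 in WT DMBA, 2138 ± 120 in Tcrb-/- DMBA and 1797 ± 145 in Tcrb-/- + Treg DMBA (SD, n = 3 each). The log2 difference of the Treg group from Tcrb-/- DMBA was -0.25 (exact permutation p = 0.1, two-sided), and that from WT DMBA was -0.26 (exact permutation p = 0.2, two-sided). In summed TPM, which weighs short ids more, these differences were only -0.0386 (exact permutation p = 0.7) and -0.0253 (exact permutation p = 0.9), and with library totals -0.336 and -0.447 (exact permutation p = 0.1 each). The sum holds T0049468 and T0049488, which are tied to the selected values. Tests of the Treg group also use libraries of the selecting contrast, so they are not independent of the selection. The difference between WT DMBA and UT WT was -0.05 (exact permutation p = 0.6, two-sided), or -0.297 in TPM (exact permutation p = 0.1, the smallest possible), and that between Tcrb-/- DMBA and WT DMBA was -0.01 (exact permutation p = 1, two-sided). Without T0049468 and T0049469, left out after their values were seen, the sum was 1310 ± 159 CPM in Tcrb-/- DMBA and 1574 ± 39.3 CPM in Tcrb-/- + Treg DMBA (SD, n = 3 each). It was higher in the Treg group with no overlap, as were 5.09% of all single transcripts. T0049462 at 918 CPM and T0049466 at 262 CPM made up most of it in the Treg group, and neither was called. Leaving out Tcrb-/- DMBA replicate 1 gave 2135 CPM for the full sum of that group and 1226 CPM for the reduced one, with the same directions.

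Grouped by consecutive entries of the tables, a grouping chosen after the values were seen, the ids fell into 15 runs, of which 12 had a mean of at least 1 CPM. The run of T0049470, at a log2 ratio of -1.89 between the Treg group and Tcrb-/- DMBA, and that of T0049487, at -1.75, hold the selected values and are no further evidence of a lower level. T0049487 makes up nearly all of its run. Of the other 10 runs, 2 were lower without overlap, 0 were higher and 8 overlapped, where 6.48% of all single transcripts were lower and 5.09% higher without overlap. The 2 were T0049485 with T0049486 at -1.32 and T0049476 to T0049482 at -1.24. The last held only 11.1 CPM in Tcrb-/- DMBA and 4.70 CPM in the Treg group. The runs next in number were T0049462 to T0049467, at 0.38, and T0049471 to T0049474, at 0.23, both with overlap. Without Tcrb-/- DMBA replicate 1 the former was 0.57 and higher in the Treg group without overlap.

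Across the 12 libraries the transcripts most like T0049470 in log2 CPM were T0052468, of 3477 nt (Pearson r = 0.984), and T0034468, of 2359 nt (r = 0.983), among 26979 others with a mean of at least 1 CPM. T0052468 was at 55.1, 48.1, 35.2 and 14.3 CPM on average in untreated, WT DMBA, Tcrb-/- DMBA and Treg skin, the same order of groups as T0049470. Those most like T0049487 were T0023340, of 1186 nt (r = 0.985), and T0086123, of 1660 nt (r = 0.983). T0086123 was at 59.7, 84.7, 79.2 and 20.6 CPM, again highest in WT DMBA. Between T0049470 and T0049487 themselves r was 0.929, and T0049487 ranked 143 among the transcripts most like T0049470. These correlations are descriptions over libraries that include the selecting contrast, where both transcripts are low by selection. A like order of group means follows largely from picking the most correlated transcripts and is no further evidence.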

How the data were processed

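The 12 libraries were poly(A) RNA of whole back skin sequenced on an Illumina instrument, as per the labels. The authors estimated reads per transcript with Salmon 1.5.2 against FVB/NJ transcripts. The deposited tables give expected counts (estimated reads), TPM, length and effective length for each transcript. Both selected transcripts and the lists used here were chosen with earlier results of these data known. Expected counts were rounded, transcripts with at least 10 reads over all libraries were kept (54539), and all groups were fitted together with edgeR 4.0.16 (R 4.3.3), using TMM factors, the quasi-likelihood test and Benjamini-Hochberg adjustment. A call needed an adjusted p under 0.01 and a fold over 2. The named ids were both selected transcripts, other ids from T0049460 to T0049497 called in any comparison, the 3 of the other ids with the most reads, and the 2 most correlated transcripts for each selected one, on log2(CPM + 1). T0049469, T0049485 and T0049488 were named outside this rule, after their values were seen. Single values were compared by two-sided exact permutation tests (scipy 1.17.1). The smallest p is 0.1 for 3 against 3 libraries and 0.2 for 3 against 2. DESeq2 1.42.0, limma 3.58.1 on log2(TPM + 0.1), other scalings, filters, a replicate block and leaving out each library were alternatives. Only the edgeR fit was tested on simulated counts, for WT DMBA relative to UT WT. Marker transcripts were not looked up, because no table used here names the ids.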

Additional observations from a re-analysis of the deposited data

How the results depend on the processing

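The Treg contrast selected T0049470 and T0049487, and its groups did not overlap for either under any scaling used. Their described log2 ratios there could therefore not change sign, so keeping it in 10 of 10 alternatives each adds no support. In WT DMBA relative to UT WT both transcripts kept their sign and stayed uncalled in 14 of 14. Over these edgeR, DESeq2 and limma settings the adjusted p was between 0.346 and 0.882 for T0049470 and between 0.284 and 0.695 for T0049487. Among the other ids, the 0 calls in Tcrb-/- + Treg DMBA relative to Tcrb-/- DMBA became 2 with DESeq2, 1 at an adjusted p under 0.05 with no fold limit, and 0 to 1 when a library was left out (1 without Tcrb-/- + Treg DMBA replicate 2). The 1 call relative to WT DMBA became 3 with DESeq2, 3 at an adjusted p under 0.05 with no fold limit, 2 with edgeR's own filter, 2 with limma on TPM, 0 with only the groups compared in the fit, 0 with the replicate number as a block, and 0 to 2 when a library was left out. Shares of all transcripts called were computed only for the main edgeR fit. Whether the calls among these ids changed more than those over all transcripts was therefore not tested. The log2 difference of the summed CPM of the other ids between Tcrb-/- DMBA and WT DMBA, -0.01, became 0.0133 with TPM, 0.0698 with the wider range of ids from T0049440 to T0049517, and -0.0837 to 0.0421 when a library was left out. That between WT DMBA and UT WT, -0.05, became 0.0118 with the wider range and -0.101 to 0.0248 when a library was left out, but -0.297 with TPM. The sums of the Treg group moved by over 1.5 times with TPM, to -0.0386 from Tcrb-/- DMBA and -0.0253 from WT DMBA, with the wider range, to -0.154 and -0.0844, and with library totals, to -0.447 from WT DMBA. The log2 ratio of T0049487 between Tcrb-/- DMBA and WT DMBA, -0.07, was between -0.169 and 0.0701 when a library was left out, positive without Tcrb-/- DMBA replicate 1 (0.0701) or WT DMBA replicate 2 (0.0262), and -0.249 with TPM. These settings were added after seeing the data. The 6.01 CPM by which T0049468 to T0049470 were higher in WT DMBA than in UT WT became -4.94 with DESeq2 size factors, -65.6 with TPM, and -90.1 to 136 when a library was left out. The cause of these changes was not tested, beyond the fewer libraries or the wider range itself. The ratio of T0049470 to T0049487 differed by -2.96 between these groups in CPM, which is not divided by length. With the tolerance at 0.05, T0049487 and T0049488 added to a whole number in 8 of the 10 libraries in which T0049487 was not whole, and the next best transcript did so in 6. Same-numbered libraries of different groups did not deviate together (r between -0.06 and 0.13 over 18 pairs, 1 of them over 0.1), and 4 of 12 libraries correlated best with their own number, so numbers were taken as names only. With 3 libraries a group, permutation tests could not go below 0.1.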
